A study of Homo sapiens with 8 samples.

Results

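The 5 loci described here hold FOS, JUN, JUNB, FOSL2 and EGR1, genes that answer growth factors, serum and steroid signalling with fast transcription. Each locus was taken as the gene with 50 kb on each side, on hg19, which gave FOS chr14:75695000-75799000, JUN chr1:59196000-59300000, JUNB chr19:12852000-12955000, FOSL2 chr2:28565000-28688000 and EGR1 chr5:137751000-137856000, or 539 kb in all. Every site of the progesterone receptor (PR) that touched one of these windows is a member. Sites of the 5 PR lists that overlap were merged, and 15 of the 43784 merged sites of the series fell in the windows: 5 at FOS, 2 at JUN, 2 at JUNB, 4 at FOSL2 and 2 at EGR1.

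Immediate early genes are transcribed within minutes of a stimulus from factors already present in the cell, without new protein synthesis. FOS, FOSL2, JUN and JUNB encode subunits of AP-1, in which a FOS family protein pairs with a JUN family protein on DNA, and EGR1 encodes a zinc finger transcription factor that binds GC-rich sites. In breast cancer cells progestins are known to activate the ERK kinase cascade through PR outside the nucleus as well as to send PR to DNA, and the ERK cascade is a classical inducer of FOS and EGR1 through serum response factor.

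PR was mapped by chromatin immunoprecipitation and sequencing (ChIP-seq) in T47D-MTVL, a human luminal breast cancer cell line with an integrated luciferase reporter driven by the mouse mammary tumour virus promoter. All groups were kept for 48 h in charcoal-treated serum and for 1 day without serum. PR lists were made from unstimulated cells (0 min) and from cells given 10 nM R5020, a synthetic progestin, for 5, 30, 60 or 360 min, and regions of H3K4me1, H3K4me3 and RNA polymerase II were listed in unstimulated cells. H3K4me1 marks enhancers and promoter flanks, and H3K4me3 marks active promoters. Each group holds 1 library, the lists carry positions with no height, and their depth is unknown, so differences between times are described without p-values. A site that is not in a list may have been bound below the authors' threshold. The lists held 844 sites at 0 min, 22973 at 5 min, 25872 at 30 min, 24436 at 60 min and 23841 at 360 min, beside 73263 H3K4me1, 22593 H3K4me3 and 31128 RNA polymerase II regions.

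The gene ends used for distances are those implied by the windows, rounded to 1 kb, so a distance can be off by about 1 kb. Distances run in the direction of transcription, with negative values upstream of the nominal start. JUN is on the minus strand, and the other 4 genes are on the plus strand. In the RefSeq order of genes FOS lies between TMED10 and JDP2, JUN between MYSM1 and FGGY, JUNB between HOOK2 and PRDX2, FOSL2 between BABAM2 and PLB1, and EGR1 between REEP2 and ETF1.

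The promoters are shown because none of the 15 PR sites lay across a gene start. The 250 bases before the start of EGR1 (chr5:138465229-138465478, plus strand), FOS (chr14:75278578-75278827, plus strand) and JUN (chr1:58784048-58784297, minus strand) are given 5′ to 3′ from RefSeq on GRCh38.p14, a build other than that of the lists. Capitals mark matches to an EGR motif or to the CArG box, the element bound by serum response factor.
EGR1: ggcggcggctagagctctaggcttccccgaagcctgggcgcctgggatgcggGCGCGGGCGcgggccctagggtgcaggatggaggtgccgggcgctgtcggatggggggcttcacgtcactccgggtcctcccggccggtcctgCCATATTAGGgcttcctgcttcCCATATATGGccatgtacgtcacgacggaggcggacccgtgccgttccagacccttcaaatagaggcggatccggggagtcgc
FOS: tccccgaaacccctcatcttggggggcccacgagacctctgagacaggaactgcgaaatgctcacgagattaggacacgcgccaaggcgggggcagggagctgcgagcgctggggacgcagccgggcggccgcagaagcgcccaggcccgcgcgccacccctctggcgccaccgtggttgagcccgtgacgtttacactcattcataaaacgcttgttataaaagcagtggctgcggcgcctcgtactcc
JUN: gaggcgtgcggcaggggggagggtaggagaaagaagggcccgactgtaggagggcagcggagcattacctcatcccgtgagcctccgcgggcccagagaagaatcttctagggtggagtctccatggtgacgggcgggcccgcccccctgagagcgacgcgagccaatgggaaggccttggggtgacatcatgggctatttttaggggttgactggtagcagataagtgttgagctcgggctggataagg

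Motifs were searched on both strands in these windows and in the same 250 bases of 35116 RefSeq promoters. EGR1 held an EGR motif, GCGNGGGCG, as GCGCGGGCG with its first base 198 bases before the start, and 8.41% of all promoters hold this motif. EGR1 also held 2 CArG boxes, CCATATTAGG and CCATATATGG, which begin 105 and 83 bases before the start, and 1.16% of all promoters hold at least 1. The PR half-site core AGAACA, held by 12.4% of promoters, and the palindrome core ACANNNTGT, held by 4.61%, matched 0 of the 5 genes. The AP-1 motif TGANTCA (6.57% of promoters) and the cAMP response element TGACGTCA (1.65%) also matched 0 of the 5. These are exact letters in a short window, and elements farther upstream were not searched. GC content was 64.8% at FOS, 62% at JUN, 70.8% at JUNB, 69.6% at FOSL2 and 68.4% at EGR1, against a median of 58% over all promoters.

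All 5 genes carried promoter chromatin before hormone. An H3K4me1 region lay across each nominal start, and an H3K4me3 and an RNA polymerase II region lay within 1 kb of it. H3K4me3 regions spanned the nominal start of FOS (chr14:75744745-75745091), FOSL2 (chr2:28614468-28615523) and EGR1 (chr5:137800046-137801095). At JUN and JUNB the closest one began 65 and 331 bp from it. An RNA polymerase II region spanned the nominal start of JUN (chr1:59249920-59250465), and the closest one at FOS, JUNB, FOSL2 and EGR1 lay 359, 185, 191 and 42 bp away. The starts are rounded to 1 kb, more than each of these distances, so which regions hold the true starts was not resolved. These lists describe cells without serum or hormone, and RNA was not analysed here.

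The amount of marked chromatin around the genes differed between loci. H3K4me1 regions covered 42.8% of the FOS window and 42.1% of the JUNB window, against 27.1% at EGR1, 9.30% at JUN and 7.19% at FOSL2, where the whole listed genome had 7.64%. H3K4me3 covered 2.78% of the FOS, 3.9% of the JUN, 5.96% of the JUNB, 3.35% of the FOSL2 and 2.91% of the EGR1 window, all above the genome's 0.549%. RNA polymerase II covered 9.78% at JUNB, 4.85% at JUN, 2.80% at EGR1, 2.49% at FOS and 0.818% at FOSL2, against 0.641%. Each window is centred on a gene with both kinds of region near its start, so coverage above the genome's was likely in advance. Coverage around other promoters is not given here. The JUNB window thus had the most RNA polymerase II and H3K4me3 of the 5, in 16 and 10 regions. These values cover the whole window, where H3K4me3 regions lay as far as 47328 bp from the nominal JUNB start. Regions were not placed against neighbouring genes. The JUNB window had no PR site listed at 60 or 360 min, though a site listed at both lay 4.2 kb beyond its end. A relation between PR sites and coverage was not tested.

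**Figure D1:**
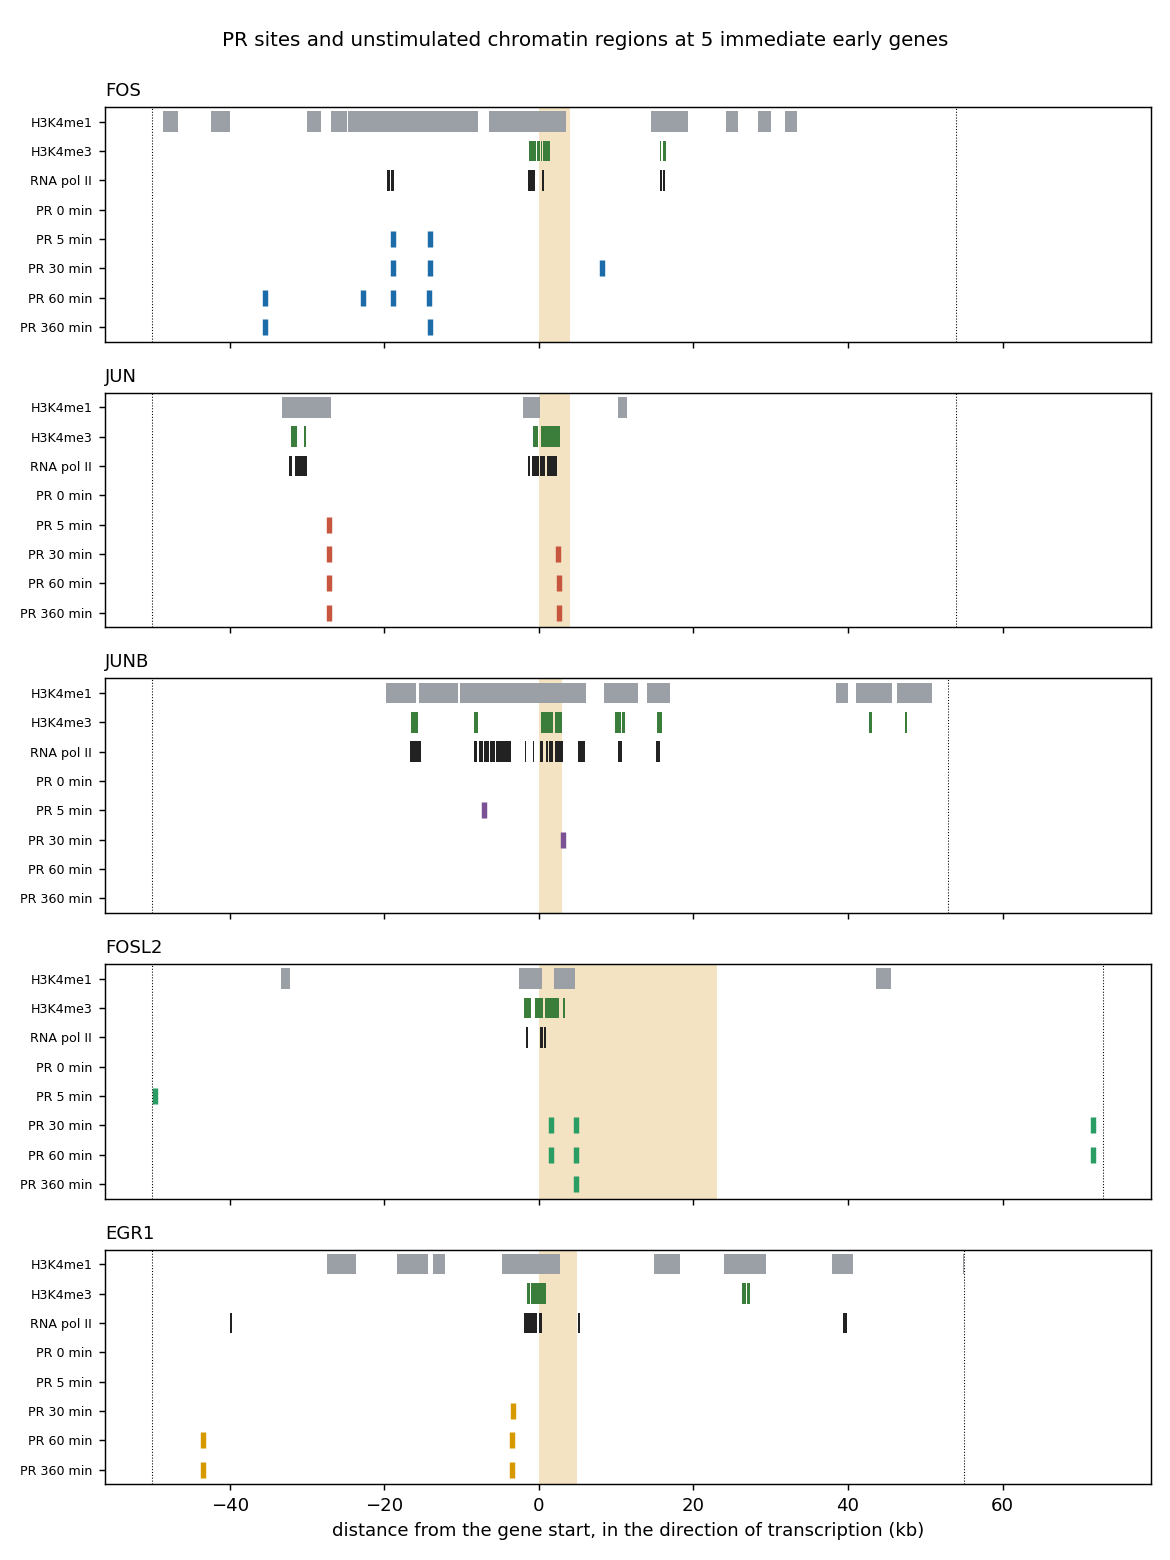
Position of PR sites at each time and of H3K4me1, H3K4me3 and RNA polymerase II regions of unstimulated cells in the 5 windows, against distance from the nominal gene start in kb; the shaded band is the gene, dotted lines are the window ends, and PR marks are drawn wider than the sites. Each nominal start lies in H3K4me1 with H3K4me3 and RNA polymerase II at or beside it, and the PR marks lie away from it, between 1.5 and 71.5 kb.

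PR sites were absent from the 5 windows in the unstimulated list, and the nearest 0 min site lay 372 kb from FOS, 1242.9 kb from JUN, 7775.9 kb from EGR1, 11282 kb from JUNB and 16935.2 kb from FOSL2. After R5020 the windows together held 5 sites at 5 min, 10 at 30 min, 11 at 60 min and 7 at 360 min. FOS held 2, 3, 4 and 2 sites at these times, JUN 1, 2, 2 and 2, FOSL2 1, 3, 3 and 1, EGR1 0, 1, 2 and 2, and JUNB 1, 1, 0 and 0. Sites were thus listed at 4 of 5 loci at 5 min and at all 5 loci at 30 min. Of 100 kb tiles of the genome, 36.7% held a site at 5 min and 39.3% at 30 min. Among tiles that hold an H3K4me3 region these shares were 54.8% and 59.7%.

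FOS, whose product needs a JUN family partner to bind DNA, had most of its PR sites upstream. The widest was the site at -13.9 kb (chr14:75730650-75731073), which was listed at all 4 hormone times with widths of 392, 423, 384 and 366 bp at 5, 30, 60 and 360 min. The site at -18.7 kb (chr14:75726005-75726262) was listed at 5, 30 and 60 min with 157, 183 and 257 bp, and the site at -22.6 kb (chr14:75722148-75722361) at 60 min alone with 213 bp. These 3 sites lay in a single H3K4me1 region of 15121 bp (chr14:75720283-75735404), and the site at -18.7 kb also overlapped an RNA polymerase II region (chr14:75725886-75726229) far from the gene start. The other two FOS sites lay in none of the 3 kinds of region. One, at -35.3 kb (chr14:75709467-75709740), was listed at 60 and 360 min with 258 and 266 bp, and the other, at +8.0 kb (chr14:75752983-75753296), at 30 min alone with 313 bp.

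JUN, whose product can also pair with itself, had 1 lasting upstream site and 1 site in the gene. The site at -26.8 kb (chr1:59276766-59277452) was listed at all 4 hormone times with 490, 686, 537 and 532 bp, and it was the widest member at each of them. Its width exceeded that of 93.7%, 99.2%, 93.4% and 96.9% of the sites of the 4 lists. It overlapped the edge of an H3K4me1 region (chr1:59276895-59283218), with H3K4me3 2.7 kb and RNA polymerase II 2.5 kb away. The site at +2.4 kb (chr1:59247272-59247601) was listed at 30, 60 and 360 min with 287, 244 and 266 bp. It lay within the nominal ends of JUN and overlapped an H3K4me3 region (chr1:59247326-59249719), and RNA polymerase II was 35 bp away.

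JUNB, an AP-1 subunit that can also restrain JUN, had 2 PR sites that were each listed once. The site at -7.0 kb (chr19:12894829-12895002) was listed at 5 min with 173 bp, and the site at +3.0 kb (chr19:12905022-12905232), at the nominal end of the gene, at 30 min with 210 bp. Both overlapped RNA polymerase II regions, chr19:12894885-12895548 and chr19:12904107-12905163, and both lay in 1 H3K4me1 region of 16335 bp (chr19:12891825-12908160) that spans the gene. At 60 and 360 min the nearest listed PR site was 54.2 kb from the JUNB start, outside the window.

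FOSL2, which encodes the FOS family member FRA-2, was the locus with most PR sites inside the named gene. By the nominal ends it is also the longest of the 5 genes. The site at +1.5 kb (chr2:28616491-28616740) was listed at 30 and 60 min with 225 and 249 bp and overlapped an H3K4me3 region (chr2:28615804-28617000). The site at +4.6 kb (chr2:28619641-28619906) was listed at 30, 60 and 360 min with 259, 222 and 175 bp. It met an H3K4me1 region (chr2:28616963-28619643) by 2 bp at 60 min, an overlap that the authors' deposited table does not mark. The other two sites lay at the ends of the window in none of the regions. The one at -49.6 kb (chr2:28565168-28565403) was listed at 5 min alone with 235 bp, and the one at +71.5 kb (chr2:28686523-28686821) at 30 and 60 min with 259 and 276 bp.

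EGR1 had no site in its window at 5 min, when the nearest listed site was 94.6 kb from its start. The site at -3.3 kb (chr5:137797365-137797747), the nearest to the gene, was listed at 30, 60 and 360 min with 306, 344 and 185 bp. It lay in an H3K4me1 region of 7447 bp that spans the start (chr5:137796232-137803679), with H3K4me3 1.7 kb and RNA polymerase II 1.4 kb away. The site at -43.3 kb (chr5:137757449-137757692) was listed at 60 and 360 min with 243 and 192 bp and lay in none of the regions.

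**Figure D2:**
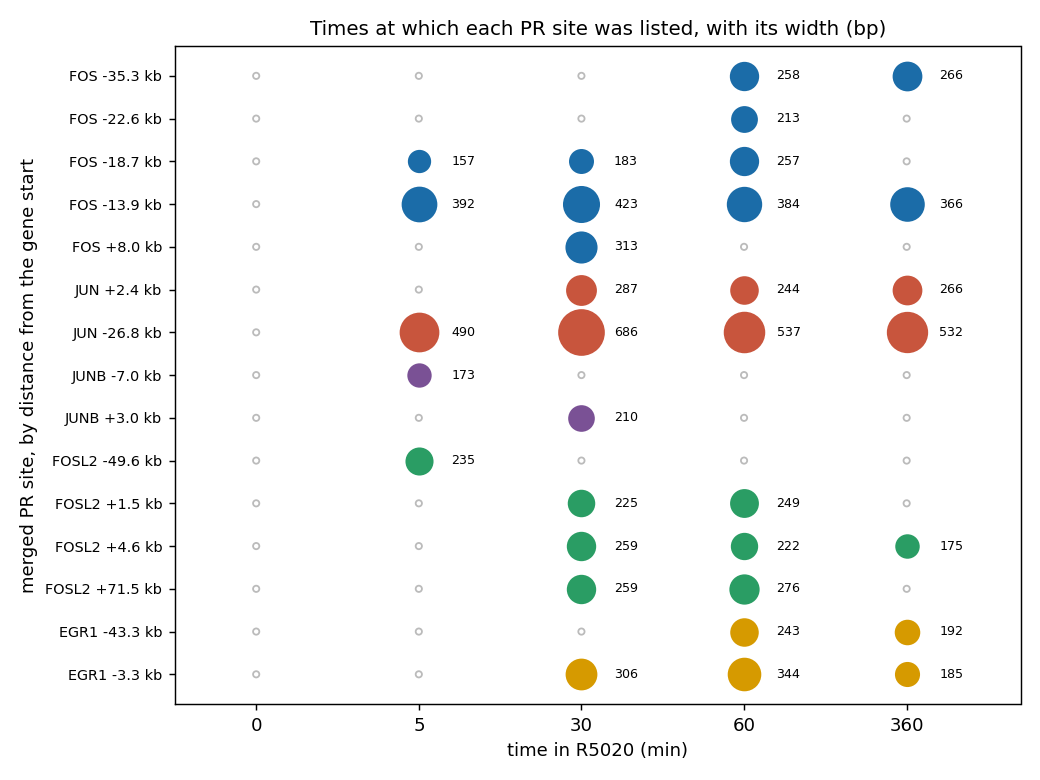
Times in R5020 at which each of the 15 merged PR sites was listed; rows are sites by gene and distance from the nominal start, filled circles scale with and are labelled by the width in bp at that time, and small open circles mark times at which the site was not listed. FOS -13.9 kb and JUN -26.8 kb fill all 4 hormone times, and both JUNB sites fill 1.

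Over the 15 sites, 9 lay upstream and 6 downstream of the nominal starts. Within the nominal ends of the named gene lay 3, and sites were not placed against neighbouring genes. Of the 15, 5 lay within 5 kb and 7 within 10 kb of the start, and 0 lay across it. By first listing, 5 appeared at 5 min, 7 at 30 min, 3 at 60 min and 0 at 360 min. Of the 5 sites listed at 5 min, 3 were listed again at 30 min. The same counts over all merged sites are not given here, so these describe the members alone. Sites narrower than the median of their list numbered 3 of 5 at 5 min (median 269 bp), 5 of 10 at 30 min (285 bp), 8 of 11 at 60 min (313 bp) and 3 of 7 at 360 min (265 bp).

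The timing of the members can be read against all merged sites, with exact binomial 95% intervals that cover counting error only. At 0 min 0 of 15 were listed, against 1.92% of all merged sites. At 5 min 5 of 15 (33.3%, 11.8 to 61.6%) were listed, against 51.5%. At 30 min the share was 10 of 15 (66.7%, 38.4 to 88.2%) against 58.1%, at 60 min 11 of 15 (73.3%, 44.9 to 92.2%) against 55%, and at 360 min 7 of 15 (46.7%, 21.3 to 73.4%) against 53.6%. Each of these intervals holds the share of the whole series. The pattern of 30, 60 and 360 min without 5 min was held by 3 of 15 sites, JUN +2.4 kb, FOSL2 +4.6 kb and EGR1 -3.3 kb, against 10.6% of all merged sites. All 4 hormone times listed 2 of 15 (13.3%, 1.66 to 40.5%) against 22.8%, and 1 time alone 5 of 15 against 43.2%.

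The listed PR sites were denser in the 5 windows than over the whole listed genome at all 4 hormone times, each with 1 library. The windows held 0.928 sites per 100 kb at 5 min (exact Poisson 95% interval 0.301 to 2.16), 1.86 at 30 min (0.890 to 3.41), 2.04 at 60 min (1.02 to 3.65) and 1.30 at 360 min (0.522 to 2.68). The whole lists held 0.757, 0.852, 0.805 and 0.786 sites per 100 kb, which lie within the intervals at 5 and 360 min and below them at 30 and 60 min. The ratio to the whole list was 1.23, 2.18, 2.53 and 1.65. With only the wider 50% of each list, 3 sites remained at 60 min, 0.557 per 100 kb against 0.403 for the list reduced in the same way, a ratio of 1.38, and at 30 min the ratio was 2.17. At 5 and 360 min it was 0.977 and 1.87. At 0 min the windows held 0 sites, which allows up to 0.684 per 100 kb, and the list held 0.0278. The intervals cover counting error only, and sites at 1 locus are not independent of each other.

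Windows around active promoters differ from the genome at large, so the same count was made over 100 kb tiles. A 60 min site was listed in 4 of the 5 windows, against 37.6% of all tiles and 58.8% of the 9489 tiles that hold an H3K4me3 region. Tiles with an H3K4me3 region held a mean of 1.28, 1.47, 1.44 and 1.40 sites at 5, 30, 60 and 360 min, and the values of 0.928, 1.86, 2.04 and 1.30 per 100 kb in the windows have intervals that hold these means. FOS held 4 sites at 60 min in a window of 104 kb, and 11.6% of tiles with an H3K4me3 region and 5.59% of all tiles held at least as many.

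**Figure D3:**
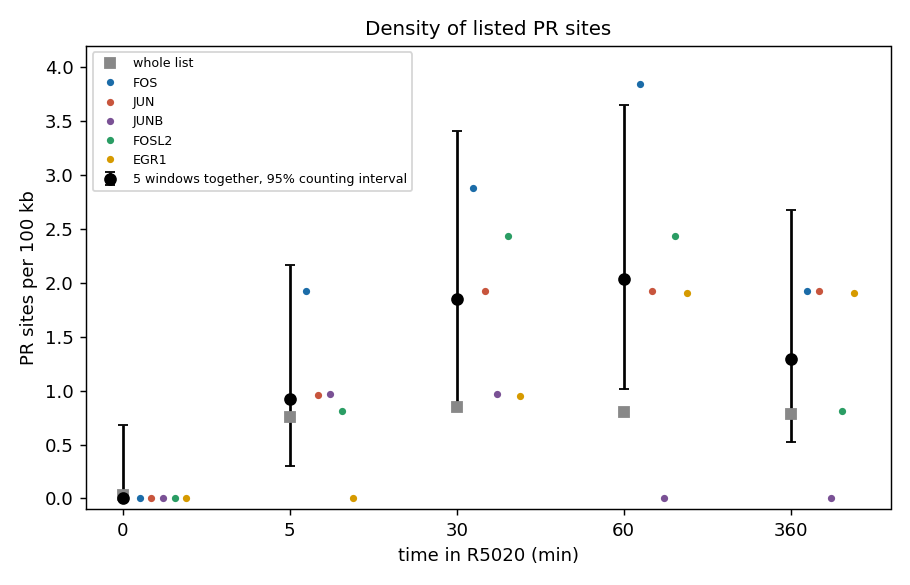
PR sites per 100 kb (y axis) at each time in R5020 (x axis, min); black points are the 5 windows together with exact Poisson 95% intervals, grey squares the whole list and coloured points the single windows. At 60 min the windows together stand at 2.04 against 0.805 for the list, with FOS highest and JUNB at 0. The interval at 60 min, 1.02 to 3.65, holds the mean of 1.44 over 100 kb tiles with an H3K4me3 region, which is not drawn.

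The 60 min sites were then read against chromatin of unstimulated cells. Of the 11, 6 overlapped H3K4me1 (54.5%, exact binomial interval 23.4 to 83.3%), against 48.2% of the 60 min list. FOSL2 +4.6 kb counts among the 6 through an overlap of 2 bp alone. When a site's midpoint had to lie in the region, 5 of 11 were in H3K4me1. The share of the whole list by midpoint is not given here. H3K4me3 was met by 2 of 11, JUN +2.4 kb and FOSL2 +1.5 kb (18.2%, 2.28 to 51.8%), against 5.12%. RNA polymerase II was met by 1 of 11, FOS -18.7 kb, against 8.92%. None of the 3 kinds was met by 3 of 11, FOS -35.3 kb, FOSL2 +71.5 kb and EGR1 -43.3 kb (27.3%, 6.02 to 61.0%), against 50.4%. By midpoint 4 of 11 met none. Each of the 3 intervals given holds the share of the whole list.

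Micrococcal nuclease (MNase) cuts DNA between nucleosomes, so reads from digested chromatin report DNA that was protected. The authors' deposited table gives 1 normalized read number per 60 min site in unstimulated and in R5020-treated cells, and their ratio, unstimulated over R5020, which is above 1 where fewer reads remained after hormone. The 2 JUNB sites are not in the 60 min list and have no value. In the authors' deposited table the normalized reads at the site in JUN (+2.4 kb) were 54 unstimulated and 10 with R5020, a ratio of 5.4. The site at FOSL2 +1.5 kb had 15 and 2, a ratio of 7.5 in the authors' deposited table. These 2 sites, the members in H3K4me3 regions, had the highest ratios of the 11 as deposited. With a pseudocount of 10 they were 3.2 at JUN +2.4 kb and 2.08 at FOSL2 +1.5 kb, and FOS -18.7 kb, at 2.34, then stood above the FOSL2 site. Of 24433 sites in the authors' deposited table, 59 had a ratio above that of the JUN site and 15 above that of the FOSL2 site, and among the 1250 sites in H3K4me3 with a ratio, whose median was 1.97, 35 and 12 did. The FOSL2 ratio rests on few reads, since 1 more or 1 fewer with R5020 would make it 5 or 15, and 38 sites of the authors' deposited table had fewer unstimulated reads.

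The 3 members with the most unstimulated reads were upstream sites of FOS and EGR1. FOS -18.7 kb had 203 and 81 normalized reads in the authors' deposited table, a ratio of 2.51. FOS -13.9 kb had 166 and 90, a ratio of 1.84, and EGR1 -3.3 kb had 107 and 52, a ratio of 2.06, in the authors' deposited table. Both FOS sites lie in the 15121 bp H3K4me1 region, and the third site of that region, FOS -22.6 kb, had 50 and 49 reads and a ratio of 1.02 in the authors' deposited table. The widest member, JUN -26.8 kb, had 66 and 55 and a ratio of 1.2, and FOSL2 +4.6 kb 22 and 14 and a ratio of 1.57, in the authors' deposited table. JUN -26.8 kb and FOS -13.9 kb, the sites listed at all 4 hormone times, lay inside the range of 0.83 to 7.5 that the other sites spanned.

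The 3 sites outside all listed regions had slightly more reads with R5020. In the authors' deposited table FOS -35.3 kb had 72 and 87 normalized reads (ratio 0.83), FOSL2 +71.5 kb 52 and 59 (0.88) and EGR1 -43.3 kb 65 and 71 (0.92). The 8 sites in a region ranged from 1.02 to 7.5. This separation depends on FOSL2 +4.6 kb, which counts as in a region by 2 bp alone and is not marked in the authors' deposited table. When a site's midpoint had to lie in the region, the 7 sites in a region ranged from 1.02 to 7.5 and the 4 in none from 0.83 to 1.57, so the sets overlapped. Over the authors' deposited table a ratio below 1 was found at 31.4% of the 12305 sites in no region and at 10.2% of the 12128 sites in one. The scale of the 2 MNase conditions is the authors', and the table's median ratio was 1.29, so a ratio near 1 is below the typical site. Against that median, 6 of the 8 sites in a region and 0 of the 3 in none were higher, where the authors' deposited table has 67.0% and 33.0%. With the midpoint rule these counts were 5 of 7 and 1 of 4.

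Over the 11 sites the median ratio in the authors' deposited table was 1.57, against 1.29 for all sites (quartiles 1.04 and 1.66). The order turned when sites needed at least 50 unstimulated reads, with a median of 1.2 over the 9 sites left against 1.33 over the 21643 left in the authors' deposited table. A ratio of 1.5 or more was held by 6 of 11, against 34.1% of the authors' deposited table, and a ratio of 1/1.5 or less by 0 of 11, against 2.57%. The median number of normalized reads was lower than in the whole table in both conditions, at 65 against 97 unstimulated and 55 against 75 with R5020. The sites differ in width, and the authors' deposited table gives reads per site and not per base. Divided by site width, the medians per 100 bp were 23.5 against 30.3 unstimulated and 21.4 against 23.1 with R5020.

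**Figure D4:**
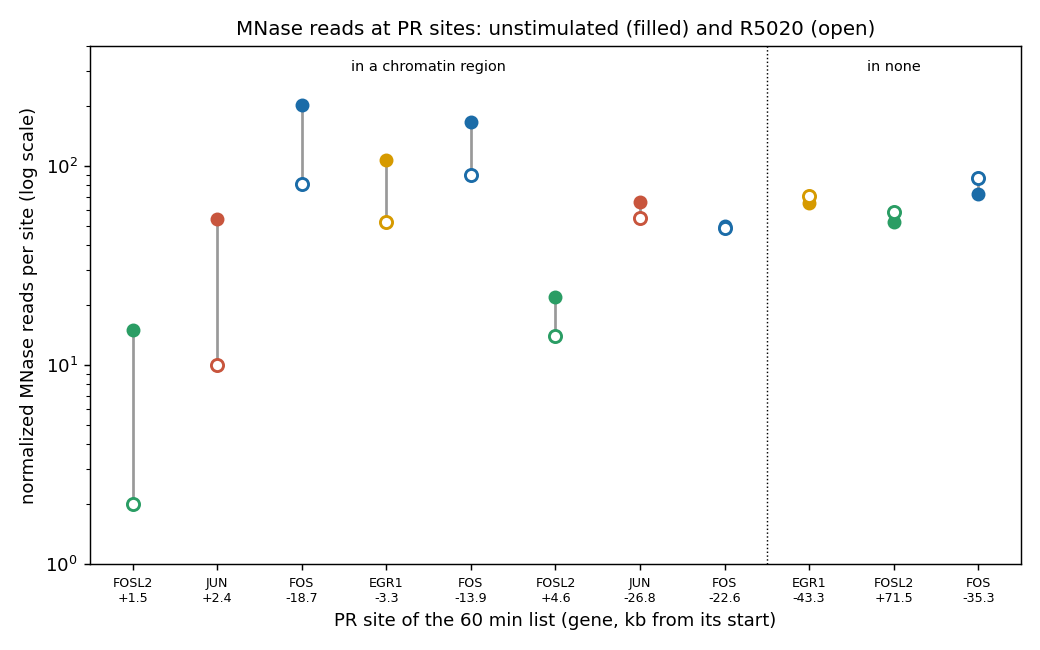
Normalized MNase reads per site (log axis) in the authors' deposited table at the 11 sites of the 60 min list, unstimulated (filled) and with R5020 (open), coloured by gene and ordered by ratio within each side of the dotted line. The 8 sites in a chromatin region have fewer reads with R5020, from 50 to 49 at FOS -22.6 kb to 15 to 2 at FOSL2 +1.5 kb, and the 3 sites in none have more; FOSL2 +4.6 kb (22 to 14) stands among the 8 through an overlap of 2 bp.

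The window ends are arbitrary, and sites stood just inside and just outside them. The FOSL2 sites at -49.6 and +71.5 kb lay 168 and 1179 bp inside the ends. Just outside, a site listed at 60 min lay 969 bp beyond the EGR1 window (chr5:137856969-137857205), a site listed at 30, 60 and 360 min 4.2 kb beyond the JUNB window (chr19:12847526-12847803), and a site listed at all 4 hormone times 5038 bp beyond the FOSL2 window (chr2:28693038-28693857). The closest sites outside the FOS window lay 20.4 and 23.8 kb beyond its ends, and outside the JUN window 23.9 and 108.4 kb.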

How the data were processed

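PR and chromatin ChIP-seq regions were deposited by the authors as chromosome, start and end on hg19, 1 list for each of the 8 samples, as the headers and the submitters' processing notes state. Aligner, peak caller, thresholds and control were not given in the sources used here. Coordinates stand as deposited. The MNase values are a score: per the file headers, they are read numbers that the authors normalized and gave as whole numbers for each 60 min site. How they were normalized, and how long R5020 was given, is not stated there. The deposited ratio equals the unstimulated over the R5020 value within 0.005 at 24433 sites and is blank at 3. All 24436 sites match the 60 min list.

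Sites were shared or in a region where they overlapped by 1 bp or more. Overlapping sites of the 5 PR lists were merged. Exact Clopper-Pearson and Poisson intervals (95%) cover counting error only. Every merged site touching a window is named, with its coordinates. No sample was repeated, so no test was made between groups. Overlap and merging were tested on simulated data against a direct search. Promoters came from RefSeq (GRCh38.p14), where all 5 genes matched by symbol. Other immediate early genes and the MNase libraries were not analysed here. The members and lists were chosen with earlier results of these data known. The median of the MNase table as a reference for ratios, and its split by the midpoint rule, were added after seeing the data. Alternatives were the flank, the merging distance, wider sites or regions, the overlap rule, a pseudocount, a minimum of reads, the ratio called, and leaving out each locus. Python 3.11.15, NumPy 2.4.6, pandas 2.3.3, SciPy 1.17.1 and Matplotlib 3.10.9 were used.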

Additional observations from a re-analysis of the deposited data

How the results depend on the processing

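Of 46 alternatives, 40 were classed as leaving their result the same and 6 as moving it, by limits that are not given here. Of the 6, 3 kept only the wider 50% of each PR list. That setting lowered the 60 min density from 2.04 to 0.557 sites per 100 kb, where the whole list fell from 0.805 to 0.403 by construction, the merged sites from 15 to 6, and the sites listed at 30, 60 and 360 min but not 5 min from 3 to 0. At 60 min 8 of the 11 sites are narrower than the list's median. The count of 60 min sites in RNA polymerase II regions was 1, became 3 when a region within 1 kb counted, and 0 with only the wider 50% of regions. With the midpoint rule, added after seeing the data, 1 site in no region, against 0, had an MNase ratio above the table's median. Flanks of 25 and 100 kb gave 60 min densities of 2.42 and 1.73. The 40 classed as the same include at least 2 that turned the order against the background. With at least 50 unstimulated reads the median MNase ratio was 1.2, against 1.33 for the whole table. With the wider 50% of the list the 5 min density was 0.371 sites per 100 kb, against 0.380 for the list. A pseudocount of 10 lowered the MNase ratio from 7.5 to 2.08 at FOSL2 +1.5 kb and from 5.4 to 3.2 at JUN +2.4 kb, both still above 1.5 but with FOSL2 +1.5 kb now below FOS -18.7 kb (2.34), and from 1.57 to 1.33 at FOSL2 +4.6 kb. No paired analysis was possible because each group holds 1 sample and no result comes from a test between samples.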
